A study of Mus musculus with 22 samples.

Results

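Levels of 10 enzyme mRNAs that methylate DNA, oxidize methylcytosine or remove acetyl groups from histones were measured in the hippocampal CA1 region of mice fed ad libitum (AL) or calorie-restricted (CR). The genes are the DNA methyltransferases Dnmt1 and Dnmt3a, the methylcytosine dioxygenases Tet1, Tet2 and Tet3, and the histone deacetylases Hdac1, Hdac2, Hdac3, Hdac4 and Hdac5. They were taken by name, and all 10 have a row among the 23361 genes of the matrix and passed the filter on low values. The study asked how long-term CR bears on the changes that age brings to CA1. Female Swiss Webster x DBA/C57BL6 F1 wild-type mice gave 1 library each: 5 AL mice and 5 CR mice at 5 months, and 6 AL mice and 6 CR mice at 15 months. The CR diet was reduced in carbohydrates only and was begun in young adulthood. All mice were wild-type and female, diet and age were the only differences between groups that the labels give, and each library was taken as 1 mouse.

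Dnmt1 copies methylation onto newly made DNA strands and is still expressed in neurons that no longer divide, and Dnmt3a sets methylation at new sites and is the main de novo enzyme of the adult brain. The TET enzymes oxidize 5-methylcytosine to 5-hydroxymethylcytosine, a base that is abundant in neurons and a step on the way to demethylation. Class I histone deacetylases (Hdac1, Hdac2 and Hdac3) remove acetyl groups from histones within corepressor complexes, and Hdac2 and Hdac3 are known as brakes on memory formation in the hippocampus. The class IIa enzymes Hdac4 and Hdac5 have little catalytic activity of their own, move between cytoplasm and nucleus with neuronal activity, and repress MEF2 transcription factors.

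The genes lie on separate loci of the mouse genome (GRCm38, GENCODE annotation): Dnmt1 at chr9:20907209-20959888 on the minus strand, Dnmt3a at chr12:3806007-3914443 on the plus strand, Tet1 at chr10:62804570-62908996, Tet2 at chr3:133463679-133545139 and Tet3 at chr6:83362373-83459084, all on the minus strand, Hdac1 at chr4:129516104-129542713 on the minus strand, Hdac2 at chr10:36974544-37001889 on the plus strand, and Hdac4 at chr1:91928779-92195699 and Hdac5 at chr11:102194432-102230166 on the minus strand. RefSeq windows of 300 bases around transcript starts (250 before and 50 after, GRCm38.p6) were used for 8 of the 10 genes. Hdac1 and Hdac3 are without a window here, and the locus of Hdac3 is not reported here. Windows of the 3 genes whose mRNA rose with age in AL mice are shown: the Dnmt1 start with the most CpG dinucleotides (chr9:20952574-20952873, minus strand), an upstream and a downstream start of Dnmt3a (chr12:3806730-3807029 and chr12:3891494-3891793, plus strand), and the Tet2 start (chr3:133544341-133544640, minus strand). Each is written 5′ to 3′ on the strand of its gene, and capitals mark the GC box GGGCGG or its reverse complement CCGCCC.
Dnmt1: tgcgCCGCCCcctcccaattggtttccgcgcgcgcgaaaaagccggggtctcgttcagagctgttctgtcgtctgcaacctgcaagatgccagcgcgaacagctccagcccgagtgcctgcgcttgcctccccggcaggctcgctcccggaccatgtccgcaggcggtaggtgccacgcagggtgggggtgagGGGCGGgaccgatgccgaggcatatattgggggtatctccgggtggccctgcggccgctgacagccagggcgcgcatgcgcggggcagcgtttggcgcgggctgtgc
Dnmt3a, upstream start: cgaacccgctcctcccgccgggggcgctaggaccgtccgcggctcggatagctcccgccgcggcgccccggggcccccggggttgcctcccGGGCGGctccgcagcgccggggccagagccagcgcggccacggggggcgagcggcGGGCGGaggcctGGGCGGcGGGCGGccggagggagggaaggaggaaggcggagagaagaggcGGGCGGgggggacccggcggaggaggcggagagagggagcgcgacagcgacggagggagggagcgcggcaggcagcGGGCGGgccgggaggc
Dnmt3a, downstream start: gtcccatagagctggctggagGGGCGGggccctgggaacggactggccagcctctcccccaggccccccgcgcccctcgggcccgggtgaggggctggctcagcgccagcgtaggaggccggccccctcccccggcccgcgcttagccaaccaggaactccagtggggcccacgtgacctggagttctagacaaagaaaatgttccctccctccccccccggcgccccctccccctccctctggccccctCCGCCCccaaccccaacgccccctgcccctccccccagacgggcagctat
Tet2: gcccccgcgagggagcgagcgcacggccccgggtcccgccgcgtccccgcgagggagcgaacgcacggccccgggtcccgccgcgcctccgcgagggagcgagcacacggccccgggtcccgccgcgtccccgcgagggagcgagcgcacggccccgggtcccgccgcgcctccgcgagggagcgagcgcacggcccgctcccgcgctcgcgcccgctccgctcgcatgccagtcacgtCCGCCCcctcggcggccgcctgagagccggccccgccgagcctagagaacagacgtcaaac
These windows hold more CpG dinucleotides, the target of the DNA methyltransferases themselves, than the median window. The Dnmt1 window was taken for its CpG content, and the 2 other Dnmt1 windows hold 12 and 2. The Dnmt1 window holds 33 CpG, the upstream Dnmt3a window 46, the downstream Dnmt3a window 18 and the Tet2 window 57, against a median of 7 over all RefSeq windows of the same length. Windows of members not called higher with age also hold more CpG than the median. The Hdac2 window (chr10:36974294-36974593, plus strand) holds 36 CpG, the Hdac4 window 32, the Tet3 window 22, the Hdac5 window 18 and the Tet1 window 17. A GC box was read 2 times in the Dnmt1 window, 6 times in the upstream and 2 times in the downstream Dnmt3a window, and 1 time in the Tet2 and in the Hdac2 window, on either strand, while 35.7% of all windows hold at least 1. These matches describe the letters of the windows only.

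The values are FPKM, fragments per kilobase of transcript scaled to the mapped fragments of the library, as the authors deposited them, so that levels can be compared between genes per length. The number of reads behind a value is unknown, and the error given is the spread between mice. Libraries are named by the number in their labels, counted from 0. The tissue was bulk, so fewer cells of a type and less RNA per cell cannot be told apart. MicroRNA and small nucleolar RNA rows held 40.9% to 64.9% of the summed FPKM of a library, with over 50% in 5 of 5 AL and 4 of 5 CR libraries at 5 months and in 3 of 6 AL and 2 of 6 CR libraries at 15 months. None of the 6 CA1 pyramidal neuron markers used was at 0 in any library. The CR library number 4 at 5 months had the highest level of choroid plexus markers, a score of 5.03 on the log2 scale, where the other CR libraries at this age had 0.349 to 2.85.

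Ordered by FPKM, Hdac5, Hdac2 and Hdac3 were the most abundant of these mRNAs and Tet1 the least. In AL mice at 5 months Hdac5 had 56.3 FPKM ± 4.79 (SD, n = 5), Hdac2 51.7 ± 2.19 and Hdac3 50.6 ± 1.88, and the ranges of neighbours in this order overlapped. Hdac1 followed at 21.2 FPKM ± 1.22, Dnmt1 at 11.5 ± 0.466, Dnmt3a at 9.22 ± 0.701, Hdac4 at 7.46 ± 1.26, Tet3 at 6.97 ± 0.466, Tet2 at 4.59 ± 0.718 and Tet1 at 1.23 ± 0.174 (SD, n = 5). The ranges of Dnmt3a and Hdac4 and those of Hdac4 and Tet3 overlapped, and the other steps down from Hdac3 were separate. At 15 months in AL mice some neighbours lower in the order stood closer: Hdac1 had 15.8 FPKM ± 1.91 and Dnmt1 15.6 ± 0.601 (SD, n = 6), with overlapping ranges, and Tet3 at 7.25 ± 0.620 overlapped Tet2 at 7.02 ± 0.534. Over all libraries the mean level of Hdac5 lay at the 90.4th percentile of the 16978 genes tested, that of Dnmt1 at the 60.0th and that of Tet1 at the 21.0th.

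**Figure D1:**
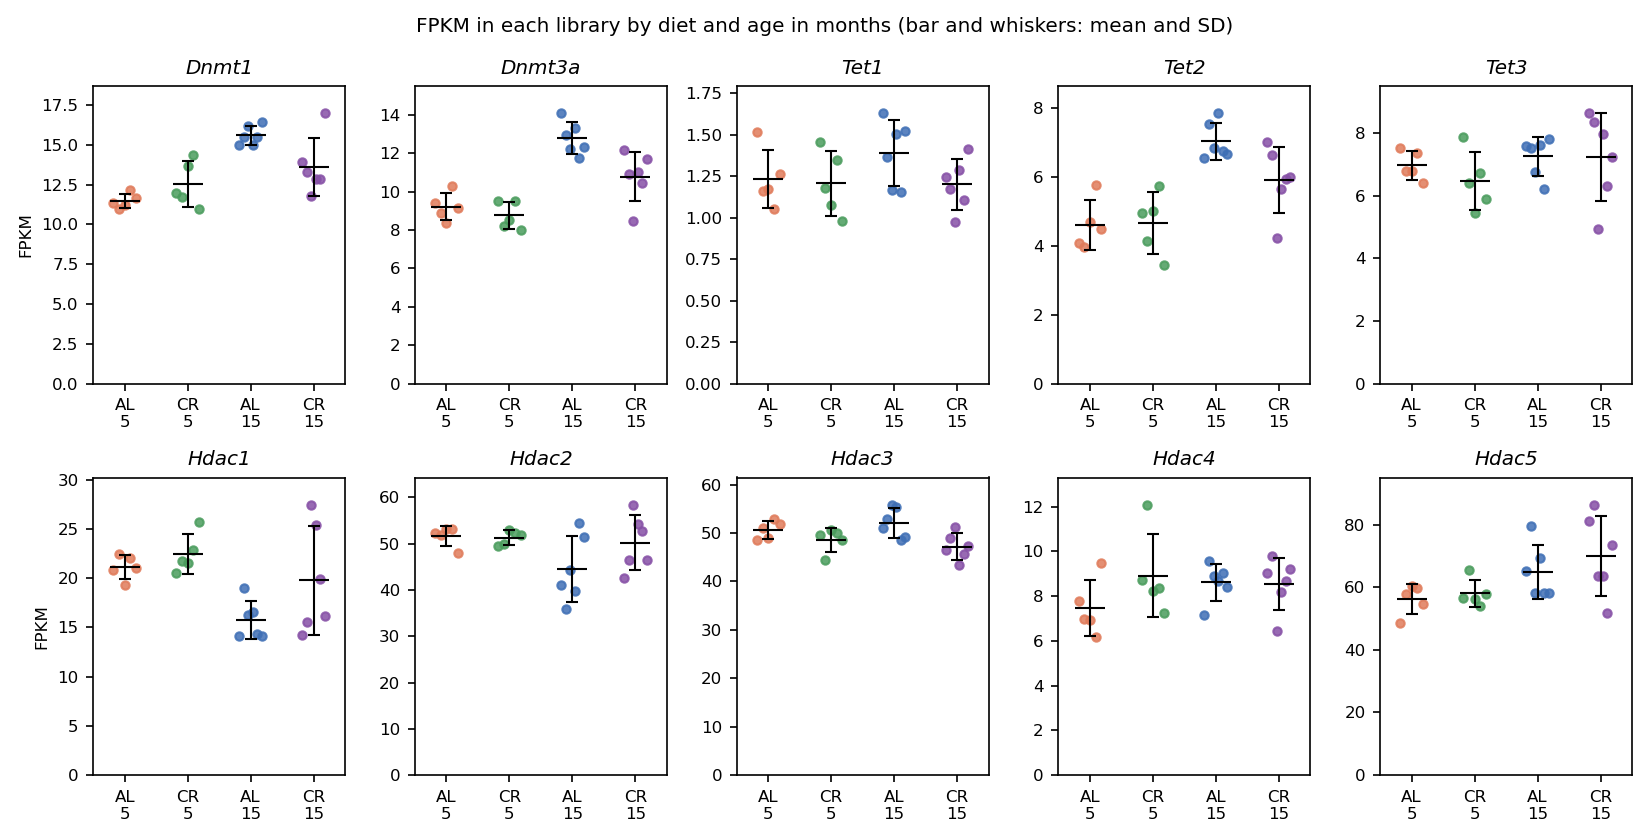
FPKM of each of the 10 genes (y axis, from 0) in every library, by diet and age in months (x axis: AL 5, CR 5, AL 15, CR 15; n = 5, 5, 6 and 6), with the group mean as a bar and the SD as whiskers. Dnmt1, Dnmt3a and Tet2 in AL mice at 15 months lie above all AL libraries at 5 months, and Hdac1 lies below them. For these genes the CR libraries at 15 months lie between the AL sets or spread over both, with some exceptions. Dnmt1 in CR number 5 (17.0 FPKM) and Hdac1 in CR numbers 2 and 3 (27.5 and 25.4 FPKM) lie above every AL library.

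Normal aging was addressed first, by comparing AL mice at 15 and 5 months. Both DNA methyltransferases and Tet2 rose, Hdac1 fell, and 6 genes did not pass the test (limma on log2(FPKM + 0.1), two-sided, Benjamini-Hochberg adjusted p under 0.05 over all genes tested). That is 4 of 10 genes called, 3 higher and 1 lower, where 20.6% of all genes tested were called in this comparison, 10.7% higher and 9.97% lower. Younger and older libraries were fully separate for the same 4 genes, against 14% of all genes. The median change of the 10 genes was 0.18 on the log2 scale and the median absolute change 0.22, beside -0.0018 and 0.20 over all genes tested.

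Dnmt1, the maintenance methyltransferase, had 11.4, 10.95, 11.2, 12.2 and 11.7 FPKM in the 5 AL mice at 5 months. In AL mice at 15 months its lowest, median and highest values were 15.0, 15.5 and 16.4 FPKM, so that every older library was above every younger one. It rose by 0.44 ± 0.0787 on the log2 scale (SE; limma adjusted p = 0.000973, exact two-sided permutation p = 0.0022, the smallest that 462 divisions of 11 libraries can give). Dnmt1 was also the gene with the least spread between older AL mice, 3.85% of its mean.

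Dnmt3a, the de novo methyltransferase, had 9.40, 8.89, 8.38, 10.3 and 9.12 FPKM in AL mice at 5 months, and 11.8, 12.7 and 14.1 FPKM as lowest, median and highest at 15 months. Again the ages were separate, and Dnmt3a rose by 0.47 ± 0.0814 on the log2 scale (SE; limma adjusted p = 0.000806, exact permutation p = 0.0022). The summed level of both methyltransferases went from 20.7 FPKM ± 1.12 (SD, n = 5) to 28.4 ± 0.627 (SD, n = 6), while the share of Dnmt3a in that sum was 44.5% ± 1.20 and 45.0% ± 2.37.

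Of the TET dioxygenases, only Tet2 passed the test with age in AL mice. It had 4.08, 3.96, 4.69, 5.77 and 4.47 FPKM at 5 months, and 6.53, 6.78 and 7.84 FPKM as lowest, median and highest at 15 months. The log2 fold change of Tet2 was 0.61 ± 0.130 (SE; limma adjusted p = 0.0031, exact permutation p = 0.0022), the largest of the 10 genes, and 6 of 6 older libraries lay above the younger ones. Tet3, the most abundant TET mRNA at 5 months, changed by 0.05 ± 0.120 (adjusted p = 0.783) and Tet1 by 0.16 ± 0.125 (adjusted p = 0.380), both with overlapping ages. The difference in change between Tet2 and the other TET genes was not tested. As a share of the summed TET FPKM, Tet2 made up 35.8% ± 3.70 in AL mice at 5 months (SD, n = 5) and 44.9% ± 2.65 at 15 months (SD, n = 6), with 31.1% to 40.6% in the younger and 41.5% to 47.7% in the older libraries, which do not overlap. Tet3 made up 54.5% ± 2.49 and 46.3% ± 1.86 of the sum at the same ages.

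Among class I deacetylases Hdac1 fell. It had 20.8, 22.5, 19.3, 22.1 and 21.1 FPKM in AL mice at 5 months, and 14.2, 15.3 and 19.0 FPKM as lowest, median and highest at 15 months. The ages were separate by a narrow margin, 19.0 against 19.3 FPKM, and Hdac1 changed by -0.43 ± 0.137 on the log2 scale (SE; limma adjusted p = 0.0316, exact permutation p = 0.00433). Of the 4 calls this was the only one lost by leaving out a library: it was lost when any of 6 libraries was left out, namely AL number 1, 3 or 4 at 5 months or AL number 0, 4 or 5 at 15 months, with an adjusted p of 0.0584 to 0.0698.

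Hdac2, the close paralogue of Hdac1 and the deacetylase best known for restraining memory genes, did not pass the test. Its values were 52.2, 51.9, 53.2, 53.1 and 47.9 FPKM in AL mice at 5 months, and 35.9, 42.7 and 54.4 FPKM as lowest, median and highest at 15 months. The older group was wide, with AL library number 4 at 54.4 FPKM above all younger mice, number 5 at 51.5 FPKM within their range and the other 4 at 44.3 or below. The log2 fold change of Hdac2 was -0.23 ± 0.0921 (SE; adjusted p = 0.0823), and without AL number 4 at 15 months it was -0.29 (adjusted p = 0.0272), without number 5 -0.27 (adjusted p = 0.0448). Hdac3, the catalytic subunit of NCoR and SMRT complexes, had 50.6 FPKM ± 1.88 (SD, n = 5) at 5 months and 52.1 ± 3.08 (SD, n = 6) at 15 months, a log2 change of 0.04 ± 0.0515 (adjusted p = 0.603), with an interval of 2 SE from -0.06 to 0.14.

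The class IIa enzymes did not pass the test. Hdac4 had 7.46 FPKM ± 1.26 in AL mice at 5 months and 8.62 ± 0.824 at 15 months, a log2 change of 0.21 ± 0.127 (SE; adjusted p = 0.236). Hdac5 had 56.3 ± 4.79 and 64.8 ± 8.66 FPKM at these ages, a log2 change of 0.20 ± 0.111 (adjusted p = 0.215). For both genes 6 of 6 older libraries lay above the median of the younger ones, and the ages overlapped.

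**Figure D2:**
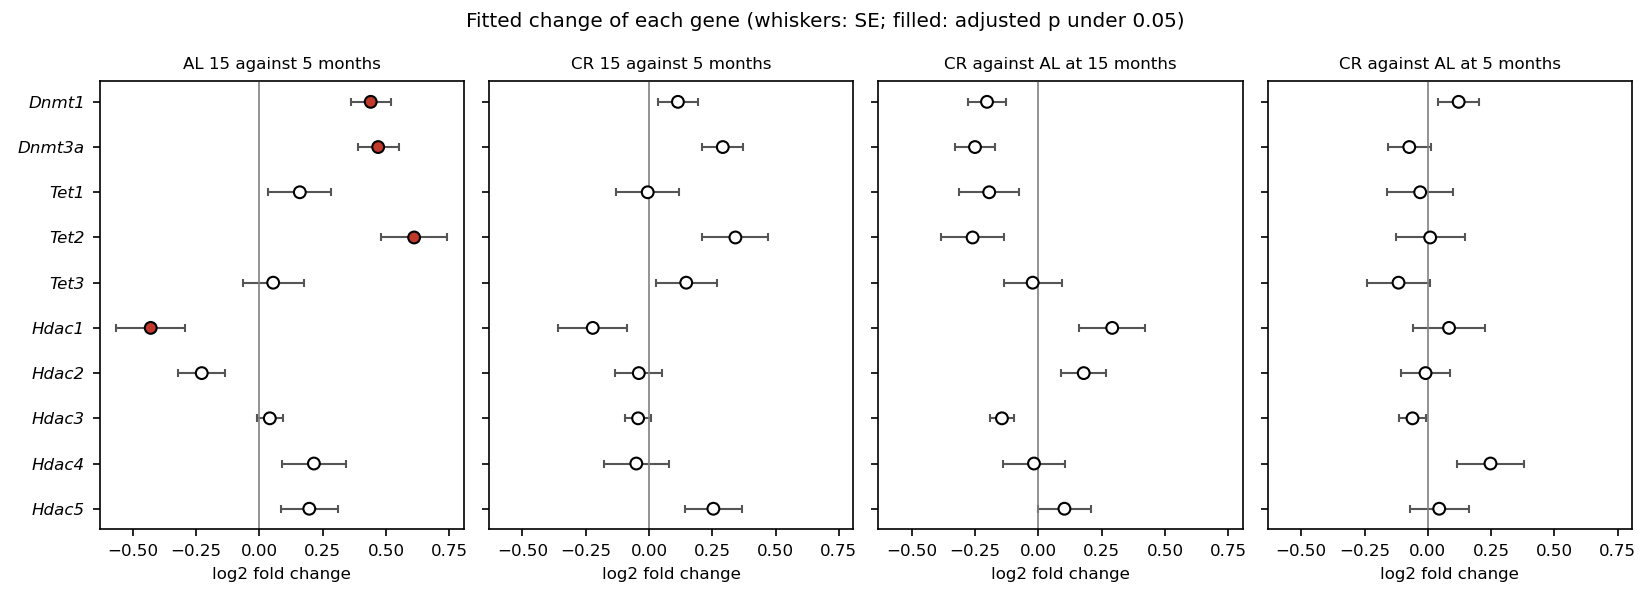
Fitted log2 fold change of each gene (x axis) in 4 comparisons, 1 panel each, with the SE as whiskers and filled points for a limma adjusted p under 0.05. Filled points appear only in the comparison of AL mice at 15 against 5 months, for Dnmt1, Dnmt3a, Tet2 and Hdac1.

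Marker mRNAs of other hippocampal and cortical cells moved with age in the same AL libraries. Of 6 CA1 pyramidal neuron markers 4 were called lower at 15 months (Fibcd1, Pou3f1, Man1a and Spink8), and of 8 neocortex and subiculum markers 4 were called higher (Tbr1, Rorb, Foxp2 and Ctgf) and 1 lower (Etv1). A region score, the mean log2 level of the neocortex and subiculum list minus that of the CA1 list, ran from -3.65 to -2.14 in AL mice at 5 months and from -1.41 to 0.66 at 15 months, without overlap. The summed level of the CA1 list was 232 to 507 FPKM at 5 months and 180 to 278 FPKM at 15 months, and that of the neocortex and subiculum list 84.9 to 120 and 116 to 215 FPKM. With the region score as a covariate, 0 of the 10 genes and 0 of all genes tested were called with age in AL mice (limma). The estimates were then 0.29 for Dnmt1 (adjusted p = 0.317), 0.43 for Dnmt3a (adjusted p = 0.220), 0.54 for Tet2 (adjusted p = 0.299) and -0.11 for Hdac1 (adjusted p = 0.860). In AL mice the score and age cannot be told apart, because no younger library reached the scores of the older ones.

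Other marker lists also moved, several of them with all markers in the same direction. The dentate granule cell list had 4 of 4 markers negative with age in AL mice, at a median log2 change of -2.24. Of 4 dentate granule cell markers 2 were called lower with age in AL mice (Dsp and Lct), and the list's score was 2.15 to 3.64 at 5 months and -0.71 to 2.49 at 15 months. With that score as a covariate, a fit added after seeing the data, Dnmt1 (0.34, adjusted p = 0.0252) and Dnmt3a (0.44, adjusted p = 0.0146) remained called, Tet2 had 0.50 (adjusted p = 0.0524) and Hdac1 -0.16 (adjusted p = 0.448), beside 6.52% of all genes called. Of 8 choroid plexus markers 4 were called lower, and all 8 were negative, with a median log2 change of -1.63. With their score as a covariate the changes were 0.43 for Dnmt1 (adjusted p = 0.00921), 0.45 for Dnmt3a (adjusted p = 0.00841) and 0.58 for Tet2 (adjusted p = 0.0222). Hdac1 had -0.40 (adjusted p = 0.114) in the same fit. The share of all genes called in that fit is not reported here. Among the other lists, 1 of 7 oligodendrocyte and 1 of 6 microglia markers were called lower, 1 of 4 thalamus markers higher, 1 of 6 astrocyte markers higher and 1 lower, and 0 of 3 CA3, 0 of 3 oligodendrocyte precursor, 0 of 5 endothelium and 0 of 6 interneuron markers. By sign, 7 of 7 oligodendrocyte markers were lower, with a median log2 change of -0.82, and 6 of 6 microglia markers, with -0.27. The 3 CA3 markers were also all lower, with a median of -0.43, and 5 of 6 astrocyte markers, with -0.19. Signs were mixed in the thalamus, oligodendrocyte precursor, endothelium and interneuron lists. The part of these lists in the changes of the 10 genes was not tested.

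**Figure D3:**
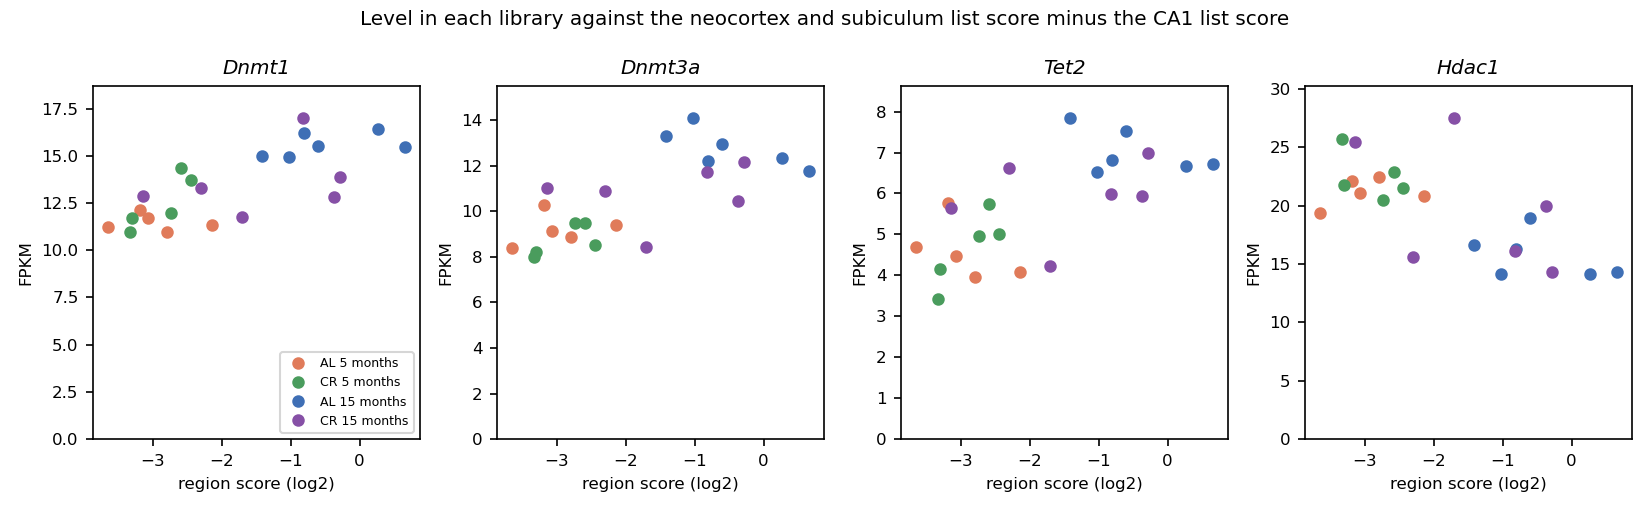
FPKM of the 4 genes called with age in AL mice (y axis, from 0) in each of 22 libraries against the region score (x axis, log2 scale, neocortex and subiculum list minus CA1 list), with points coloured by group. AL libraries at 5 and 15 months form separate sets on the x axis. The CR libraries at 15 months run from -3.14 to -0.28. They reach into both sets but not to the highest AL scores at 15 months, 0.27 and 0.66.

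The small RNA share also differed between ages. Among libraries with a share above 50% (3 AL mice at 15 and 5 at 5 months), the difference with age was 0.44 for Dnmt1, 0.43 for Dnmt3a, 0.62 for Tet2 and -0.49 for Hdac1 on the log2 scale, each with an exact permutation p of 0.0179, the smallest that 56 divisions can give. The older libraries in this subset, AL numbers 3, 4 and 5, had region scores of -1.41, 0.66 and 0.27. The last 2 are the highest of all AL libraries. A fit on the libraries above 50% only was not among the planned settings. Below 50% there was no AL library at 5 months, so no value could be had there. Libraries were also rescaled to a common sum without the small RNA rows, which moved the median of all genes to 0.11. The changes were then 0.55 for Dnmt1 (limma adjusted p = 0.000419), 0.58 for Dnmt3a (adjusted p = 0.000864) and 0.72 for Tet2 (adjusted p = 0.00176). Hdac1 had -0.32 (adjusted p = 0.101). The share of all genes called in that fit is not reported here.

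CR was compared with AL at 15 months to ask what the diet changed in older mice. None of the 10 genes passed the test, 0 of 10 beside 0.742% of all genes called (limma). At an unadjusted p under 0.05, 5 of the 10 would be counted, namely Dnmt1, Dnmt3a, Tet2, Hdac1 and Hdac3, beside 17.1% of all genes. This comparison uses the same older AL libraries as the comparison with age, so that its values are set beside that comparison without being an independent measurement. The ranges of CR and AL overlapped for all 10 genes, where 0.984% of all genes were fully separate.

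The methyltransferases and Tet2 had lower values in older CR than in older AL mice. Dnmt1 had 11.8, 13.1 and 17.0 FPKM as lowest, median and highest in CR mice at 15 months, against 15.0, 15.5 and 16.4 in AL mice, and the log2 difference was -0.20 ± 0.0750 (SE; adjusted p = 0.179, exact permutation p = 0.0281). CR library number 5 held the highest Dnmt1 value, and the 5 others lay at 13.9 FPKM or below. Without it the difference was -0.27 (adjusted p = 0.0342). Dnmt3a had 8.45, 10.96 and 12.2 FPKM in CR mice against 11.8, 12.7 and 14.1 in AL mice, with 6 of 6 CR libraries below the AL median, a log2 difference of -0.25 ± 0.0776 (adjusted p = 0.119, exact permutation p = 0.00433). Without CR number 0 it was -0.29 (adjusted p = 0.0453). Tet2 had 4.23, 5.97 and 6.995 FPKM against 6.53, 6.78 and 7.84, a log2 difference of -0.26 ± 0.124 (adjusted p = 0.290, exact permutation p = 0.0260). Without CR number 2, the library with the lowest value of each of these genes, the differences shrank to -0.16 for Dnmt1 (adjusted p = 0.305), -0.18 for Dnmt3a (adjusted p = 0.194) and -0.17 for Tet2 (adjusted p = 0.508).

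For the deacetylases the differences of CR from AL at 15 months ran in both directions. Hdac1 had 14.3, 18.03 and 27.5 FPKM as lowest, median and highest in CR mice against 14.2, 15.3 and 19.0 in AL mice, a log2 difference of 0.29 ± 0.130 (adjusted p = 0.260, exact permutation p = 0.141). The CR libraries split widely here, with numbers 2 and 3 at 27.5 and 25.4 FPKM and the others between 14.3 and 19.9, a spread of 27.9% of the mean. The same 2 libraries had the highest dentate granule cell scores of all 22, 3.89 and 4.66. With that score as a covariate, a fit added after seeing the data, the Hdac1 difference was 0.11 (adjusted p = 0.777). The score itself averaged 2.36 in CR and 0.92 in AL mice at 15 months, and beyond that fit its part in the Hdac1 difference was not tested. Without CR number 2 the Hdac1 difference was 0.19 (adjusted p = 0.462). Hdac2 differed by 0.18 ± 0.0879 (adjusted p = 0.302) and Hdac3 by -0.14 ± 0.0491 (adjusted p = 0.153, exact permutation p = 0.0195), where 6 of 6 CR libraries lay below the AL median of Hdac3. Hdac4 differed by -0.02 ± 0.121 (adjusted p = 0.959) and Hdac5 by 0.10 ± 0.106 (adjusted p = 0.647), with intervals of 2 SE from -0.26 to 0.23 and from -0.11 to 0.32. By library left out the Hdac5 difference ran from 0.038 without CR number 1 to 0.19 without CR number 4. Of the remaining TET genes, Tet1 differed by -0.19 ± 0.119 (adjusted p = 0.418), with 6 of 6 CR libraries below the AL median, and Tet3 by -0.02 ± 0.114 (adjusted p = 0.942). The exact p values are unadjusted. With all libraries in the fit and no replicate block, none of these differences passed after adjustment over all genes.

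Within libraries of like small RNA share, the differences at 15 months kept their sign for the methyltransferases. With a share under 50% (4 CR and 3 AL mice), Dnmt1 differed by -0.26 (exact permutation p = 0.0286 of 35 divisions) and Dnmt3a by -0.31 (p = 0.0571). With a share above 50% (2 CR and 3 AL mice), Dnmt1 differed by -0.08 (exact permutation p = 0.8) and Dnmt3a by -0.17 (p = 0.2). The 10 divisions there cannot give a p under 0.1. With the region score as a covariate the difference was -0.15 for Dnmt1 (adjusted p = 0.565) and -0.24 for Dnmt3a (adjusted p = 0.368). The CA1 list had 0 of 6 and the neocortex and subiculum list 0 of 8 markers called between the diets at 15 months. Even so, the median log2 difference of CR from AL was 0.74 for the CA1 list, with 5 of 6 markers positive. It was -0.35 for the neocortex and subiculum list, with 5 of 8 negative, and 1.37 for the dentate list, with 4 of 4 positive. The mean region score was -1.44 in CR and -0.48 in AL mice at 15 months. The cause of the differences was not tested.

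At 5 months CR and AL mice were compared to see what the shorter diet did, and 0 of 10 genes were called, as were 0% of all genes (limma, 0 of 16978 called and 789, or 4.65%, at an unadjusted p under 0.05). No member had an unadjusted p under 0.05. Dnmt1 had 11.998, 11.7, 13.7, 14.4 and 10.95 FPKM in CR mice, 12.6 ± 1.43 against 11.5 ± 0.466 in AL mice (SD, n = 5 each), a log2 difference of 0.12 ± 0.0822. Dnmt3a had 8.76 FPKM ± 0.707 against 9.22 ± 0.701, and Tet2 4.65 ± 0.887 against 4.59 ± 0.718. The largest difference was that of Hdac4, 8.92 FPKM ± 1.86 against 7.46 ± 1.26, a log2 difference of 0.25 ± 0.133 (exact permutation p = 0.159), with CR library number 1 at 12.1 FPKM, without which it was 0.13. Without CR number 3 the Dnmt1 difference was 0.071. For Hdac2, 51.3 FPKM ± 1.57 in CR and 51.7 ± 2.19 in AL mice, the difference was -0.01 with an interval of 2 SE from -0.20 to 0.18. Between the diets at 5 months 8 of 8 choroid plexus markers were higher in CR mice, with a median log2 difference of 1.68. All 7 oligodendrocyte markers were lower, with a median of -0.44, and 0 markers of either list were called. The part of these shifts in the differences of the 10 genes was not tested.

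In CR mice the comparison of 15 with 5 months gave 0 of 10 genes called, beside 3.36% of all genes. Dnmt3a came closest, with 9.50, 8.22, 8.54, 9.51 and 8.01 FPKM at 5 months and 8.45, 10.96 and 12.2 as lowest, median and highest at 15 months, a log2 change of 0.29 ± 0.0814 (SE; adjusted p = 0.0526, exact permutation p = 0.0216). Tet2 changed by 0.34 ± 0.130 (adjusted p = 0.161), Dnmt1 by 0.11 ± 0.0787 (adjusted p = 0.470), Hdac1 by -0.22 ± 0.137 (adjusted p = 0.413) and Hdac5 by 0.25 ± 0.111 (adjusted p = 0.226). One library weighed on these values: CR number 2 at 15 months had the lowest value of its group for 6 genes (Dnmt1, Dnmt3a, Tet1, Tet2, Tet3 and Hdac4) and the highest for 3 (Hdac1, Hdac2 and Hdac3), that is 9 of 10 at an end of the group. No other library was at an end of its group for more than 6. Its score for dentate granule cell markers was 3.89, second to CR number 3 at 4.66. Without CR number 2, Dnmt3a changed by 0.36 (adjusted p = 0.00556) and Tet2 by 0.43 (adjusted p = 0.0464) with age in CR mice, and without CR number 3 at 5 months Dnmt3a changed by 0.32 (adjusted p = 0.0489). Other libraries moved the values the other way: Dnmt1 changed by 0.049 without CR number 5 at 15 months and by 0.068 without CR number 4 at 5 months, Hdac1 by -0.14 without CR number 0 at 15 months, and Tet2 by 0.24 without CR number 4 at 5 months (adjusted p = 0.394). Tissue markers moved as well: 7 of 8 choroid plexus markers were called lower with age in CR mice, with a median log2 change of -3.26. The CA1 list had a median of -0.89 and the neocortex and subiculum list 0.47, with 0 markers called in either. The part of these shifts in the changes of the 10 genes was not tested.

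Older CR mice were also set against young AL mice. Again 0 of 10 genes were called, beside 3.12% of all genes. The log2 differences were 0.24 ± 0.0787 for Dnmt1 (adjusted p = 0.102), 0.22 ± 0.0814 for Dnmt3a (adjusted p = 0.141), 0.35 ± 0.130 for Tet2 (adjusted p = 0.140) and 0.30 ± 0.111 for Hdac5 (adjusted p = 0.140). Without CR number 2 the first 3 were called, at 0.28 for Dnmt1 (adjusted p = 0.044), 0.29 for Dnmt3a (adjusted p = 0.0206) and 0.44 for Tet2 (adjusted p = 0.0368), and without CR number 4 Hdac5 was called at 0.38 (adjusted p = 0.0401). The 3.12% is from the fit with all libraries, and the shares of all genes called without these libraries are not reported here.

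Whether the change with age differed between the diets was tested by the interaction of age and diet. None of the 10 genes passed, and 0 of all genes did (limma, 1301 genes or 7.66% at an unadjusted p under 0.05). Dnmt1 was the only member with an unadjusted p under 0.05: its change with age in CR mice minus that in AL mice was -0.32 ± 0.111 on the log2 scale (unadjusted p = 0.00837, adjusted p = 0.608), and over all alternatives it ran from -0.41 to -0.22 with an adjusted p of 0.238 to 0.9997. For Tet2 the term was -0.27 ± 0.184, for Dnmt3a -0.18 ± 0.115 and for Hdac1 0.21 ± 0.194 (adjusted p = 0.737, 0.723 and 0.811). A change called in AL and not in CR mice is therefore not shown to differ between the diets.

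**Figure D4:**
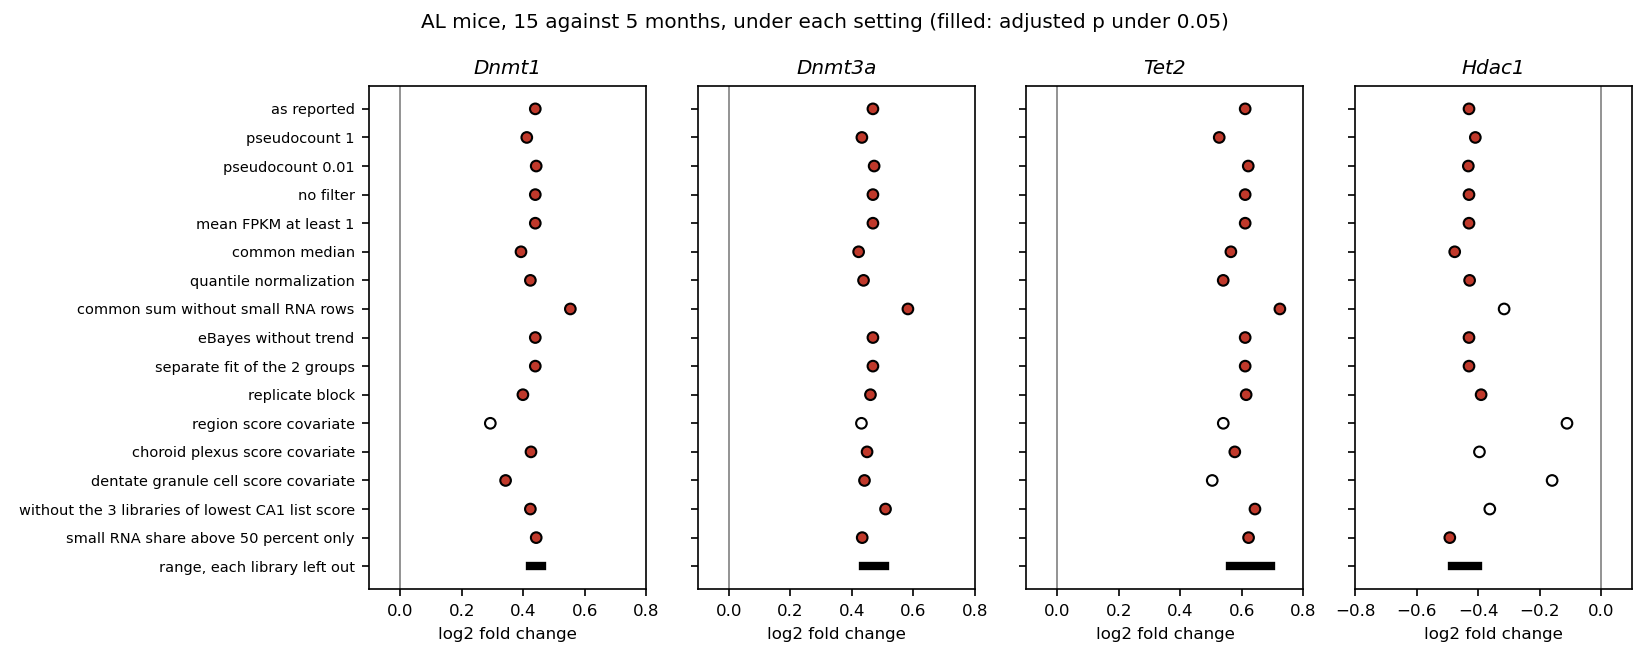
Log2 fold change of the 4 genes called with age in AL mice (x axis) under each processing setting (y axis), filled where the limma adjusted p was under 0.05, with a bar for the range over fits that each leave out 1 of 22 libraries. Dnmt1 and Dnmt3a lose the call only with the region score as a covariate, Tet2 with the region or the dentate score, and Hdac1 with 5 of the 15 alternatives drawn.

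The wider system of DNA methylation and histone acetylation was described from 56 further genes in 7 lists. In AL mice 13 of the 56 were called with age, 6 higher and 7 lower, beside 20.6% of all genes. Against older AL mice, 0 of the 56 were called in older CR mice, beside 0.742% of all genes, and 3 of the 56 were called with age in CR mice, beside 3.36% of all genes.

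Of 4 other methylation enzymes and recruiters 2 were called lower. Dnmt3l, the cofactor of the de novo methyltransferases that is best known from germ cells, went from 0.403 FPKM ± 0.0320 to 0.115 ± 0.0779, a log2 fold change of -1.31 at a low level. Of 8 demethylation and repair partners 1 was called higher and 2 lower: Ogt, the transferase that partners TET proteins, rose by 0.22, and Apex1, the endonuclease of base excision repair, had a log2 fold change of -0.39. Of 5 methyl donor genes 1 was called, Ahcy, which clears the S-adenosylhomocysteine left by methylation, from 18.1 FPKM ± 1.36 to 14.4 ± 1.57, a log2 fold change of -0.33.

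Around the deacetylases, 2 of 6 other zinc-dependent enzymes were called higher. Hdac7, a class IIa enzyme like Hdac4 and Hdac5, went from 6.45 FPKM ± 1.24 to 11.4 ± 1.32 in AL mice, a log2 fold change of 0.83 (adjusted p = 0.000333), and stood at 8.08 ± 0.642 in older CR mice. Of 20 corepressor subunits 1 was called higher and 2 lower. Tbl1x, a part of the NCoR and SMRT complexes, rose by 0.41, and Sap18, a part of the SIN3 complex, had a log2 fold change of -0.39 in AL mice (adjusted p = 0.000403) and -0.25 in CR mice (adjusted p = 0.0248). Of 9 histone acetyltransferases, which add the groups that deacetylases remove, Crebbp was called higher at 0.37 (adjusted p = 0.0493). Of the 4 MEF2 genes, whose proteins class IIa enzymes repress, Mef2c went from 21.0 FPKM ± 5.66 to 79.5 ± 39.5, a log2 fold change of 1.82 in AL mice (adjusted p = 0.000415) and 1.28 in CR mice (adjusted p = 0.0126). Mef2c is also abundant in neocortical neurons, and the region score given above rose in the same libraries. The part of the region score in the Mef2c change was not tested.

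**Figure D5:**
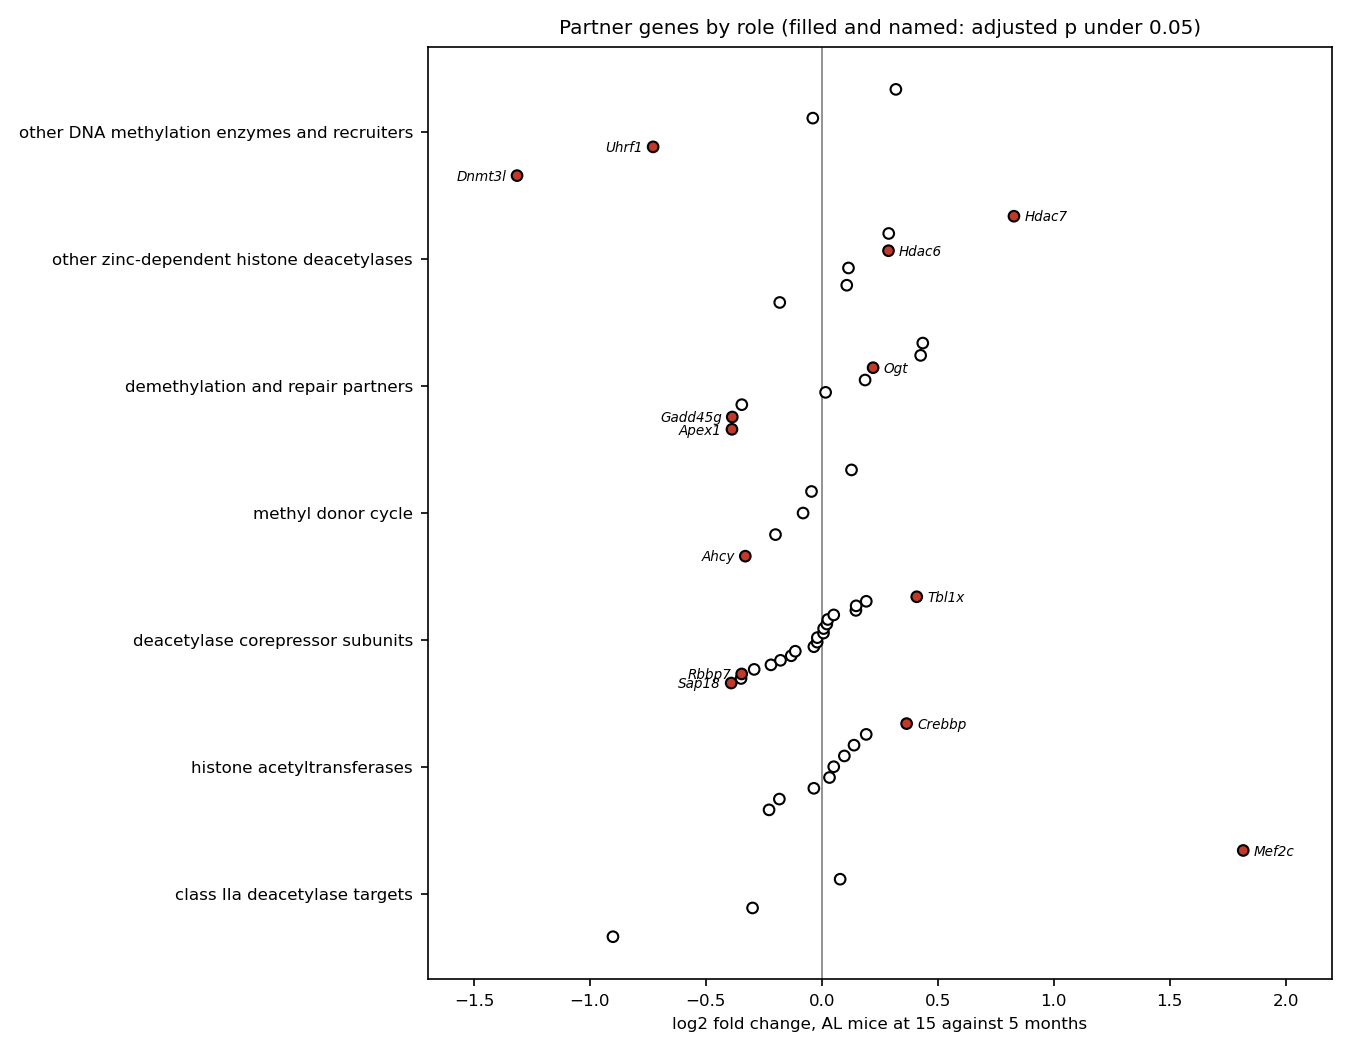
Log2 fold change of 56 partner genes in AL mice at 15 against 5 months (x axis), grouped by role (y axis), with filled and named points for a limma adjusted p under 0.05. The 13 called genes lie on both sides of 0, 6 higher and 7 lower.

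The genes most alike to each member over the 22 libraries were named by the highest Pearson correlation of log2(FPKM + 0.1) among tested genes whose mean FPKM reached 1. These libraries share the groups and the marker shifts given above, so the values are a description. L3mbtl1 was most like Tet2 (r = 0.956), Nup210 most like Dnmt3a (r = 0.954), Plekha6 most like Dnmt1 (r = 0.926), Srek1ip1 most like Hdac2 (r = 0.921) and Nt5dc2 most like Hdac1 (r = 0.918). The highest values were lower for Hdac5 (Zmiz2, r = 0.882), Hdac3 (Htra2, r = 0.838), Tet1 (Ddhd1, r = 0.820), Tet3 (Setd1b, r = 0.772) and Hdac4 (Rnf41, r = 0.758).

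Some annotated transcripts overlap exons of these genes, and the library kit does not mark strand. Dnmt3aos overlaps Dnmt3a, Gm42567 overlaps Tet2 and Gm26720 overlaps Hdac4 on the opposite strand, and Mir8101 overlaps Hdac5 on the same strand. None of the 4 has a row in the matrix, so reads from them and from the member cannot be told apart.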

How the data were processed

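Hippocampal CA1 mRNA libraries (TruSeq RNA v2, paired-end) of 22 mice were analysed from the FPKM values that the authors deposited. Per the labels and the study's methods, TopHat placed the reads on mm10, Picard marked duplicates and Cufflinks gave the FPKM, corrected for fragment bias and multi-mapping reads. The annotation release is not given in the sources used here. Reads were not recovered: in the few pairs of libraries examined, at most 6.39% of low genes lay within 0.5% of a common ratio. The other pairs were not examined. No counting error can thus be given, only the spread between mice.

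From there, log2(FPKM + 0.1) of 16978 genes, those whose mean FPKM reached 0.1, was fitted over 4 groups with limma 3.58.1 in R 4.3.3 (eBayes with trend), since the authors' Cuffdiff test needs reads. A gene was called in a contrast at an adjusted p (Benjamini-Hochberg) below 0.05. Single genes were also compared by exact two-sided permutation of group means. Groups came from the diet and age labels. Alternatives were pseudocounts, filters, scalings, fits without trend or of 2 groups, a replicate block, marker score covariates and each library left out. All 10 members are named whatever their values; of each partner list, the called genes with the largest rise and fall with age in AL mice are named, and of all tested genes the one most alike to each member. A list's score is its mean log2(FPKM + 0.1) in a library. The scripts were tested on simulated data. Coordinates are from GENCODE M21 and promoter windows from RefSeq. Tables and figures used Python 3.11.15, pandas 2.3.3, scipy 1.17.1 and matplotlib 3.10.9. The members and lists were chosen with earlier results of these data known. A further list of partner genes is not reported here.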

Additional observations from a re-analysis of the deposited data

Results flagged for a closer look

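In 1 of 40 groups of member values, a library stood far from the rest of its group: Hdac2 in AL mice at 5 months, where library number 4 had 47.9 FPKM and the 4 others 51.9 to 53.2 FPKM. Chance flags about 1 in 20 groups.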

How the results depend on the processing

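With age in AL mice, 4 members were called as reported, 0 with the region score and 2 with the dentate score as a covariate (the latter added after seeing the data), and 3 to 4 when each library was left out. Apart from the region and dentate score fits, the shares of all genes called in the alternative fits are not reported here. Over fits that each leave out 1 of 22 libraries, Dnmt1 (0.42 to 0.46), Dnmt3a (0.44 to 0.51) and Tet2 (0.56 to 0.69) were called in 22 of 22 and Hdac1 (-0.48 to -0.40) in 16. Hdac1 also lost its call with libraries rescaled to a common sum without small RNA rows (-0.32, adjusted p = 0.101, where the median of all genes shifted to 0.11) and without the 3 libraries of lowest CA1 list score (AL number 4 and 5 and CR number 4 at 15 months, chosen after seeing the data; -0.36, adjusted p = 0.121). Hdac2 was called with a common median (-0.27, adjusted p = 0.0426) and without those 3 libraries (-0.36, adjusted p = 0.0076). The cause was not tested.

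Members called elsewhere, 0 as reported, numbered 1 with a common median and 0 to 2 by library left out for age in CR mice, 0 to 1 by library left out for diet at 15 months, and 0 to 3 by library left out and 1 (Hdac5) without the 3 libraries of lowest CA1 list score for older CR against young AL mice. Same-numbered libraries did not deviate together (correlations of -0.139 to 0.163 over 31 pairs, 2 above 0.1, and 5 of 22 libraries closest to their own number). A fit with the replicate block called 1 member, Dnmt3a, with age in CR mice (0.28, adjusted p = 0.0208) and 1 with diet at 15 months (-0.25, adjusted p = 0.0414).

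Reversed signs came only from changes near 0 that were called in no setting. With age in AL mice Tet3 was -0.0095 under quantile normalization and Hdac3 -0.0057 with a common median. With age in CR mice Tet1 was 0.0070 under quantile normalization, 0.023 with a common sum, 0.014 without the 3 libraries and 0.057 with small RNA shares above 50% only, and Hdac4 0.14 in the last. Between diets at 15 months Tet3 was 0.0038 with a common median and 0.020 under quantile normalization, and Hdac4 was 0.0089 and 0.0077 under these, 0.013 with the region score, 0.10 with the dentate score and 0.038 with shares above 50%. Between diets at 5 months Tet1 was 0.049 with the choroid plexus score, Tet2 -0.0052 with a common median, -0.0034 under quantile normalization and -0.023 with the dentate score, and Hdac2 0.0044 with a common sum, 0.032 with the choroid plexus score, 0.0018 with the dentate score and 0.00085 with shares above 50%. By library left out, Tet1 (-0.071 to 0.061), Hdac2 (-0.086 to 0.0055) and Hdac4 (-0.12 to 0.064) changed sign with age in CR mice, Tet3 (-0.078 to 0.081) and Hdac4 (-0.070 to 0.061) between diets at 15 months, and Tet1 (-0.096 to 0.041), Tet2 (-0.070 to 0.11), Hdac2 (-0.036 to 0.0043) and Hdac5 (-0.0062 to 0.072) between diets at 5 months.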
